A study of Mus musculus with 2 samples.

Results

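Apoe, Lpl, Abca1, Abcg1, Pltp, Fabp5, Plin2, Trem2, Nr1h3 and Soat1 are genes with which macrophages take up, carry, store and export lipid and cholesterol. They were chosen by name, and all 10 were found among the 27998 genes of both count matrices. Macrophages were sorted from the small intestine of wild-type mice and of Ccr2-deficient mice. Ccr2 encodes a chemokine receptor on which blood monocytes depend to populate tissues. The design asks how these transcripts stand when that supply of monocytes is cut, and how they relate inside each library to Timd4, a marker of long-lived resident macrophages, and to Ccr2 itself. The wild-type library came from male C57BL/6J mice obtained from Janvier, and the knockout library from CCR2-/- mice of JAX strain 004999 bred in-house, for which neither sex nor age is given in the labels. Genotype and source of the animals are therefore the same split and cannot be told apart. Intestines of 3 to 4 animals were combined for each genotype after removal of mucus and epithelium and digestion with Liberase TL. Live CD45+ cells positive for CD11b, MHCII and CD64 and negative for CD3, TCRb, B220, SiglecF, Ly6C and Ly6G were sorted, so that monocytes still bearing Ly6C were gated out in both genotypes. Each genotype was 1 library, read with 10x Genomics 3′ v2 chemistry, which counts captured transcript ends by their unique molecular identifiers (UMIs). The wild-type cells were divided over 2 lanes.

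Cells were kept when they held at least 200 genes and at most 10% mitochondrial UMIs, which left 2612 of 2774 knockout cells and 3016 of 3054 wild-type cells, 2109 in lane 1 and 907 in lane 2. The knockout library was shallower, with a median of 2439 UMIs per cell against 6185 and 6034 in the wild-type lanes, and 7265386 against 20678108 UMIs in all. Ccr2 itself had a UMI in 1.15% of knockout cells against 44.8% and 41.9% of the wild-type cells by lane. Timd4 had a UMI in 31.2% of knockout cells against 14.9% and 14.3%. Macrophage markers (9 of 9 detected) summed to 11741 CPM (UMIs of a gene per 1000000 UMIs) in the knockout, 14019 in lane 1 and 16992 in lane 2. Immediate-early genes made up a median of 2.40% of the UMIs of a knockout cell against 0.535% and 0.512%, and haemoglobin transcripts summed to 7429 CPM against 1078 and 3.44 CPM by lane. Barcode sequences shared between sets numbered 6 for the knockout and lane 1, 5 for the wild-type lanes and 0 for the knockout and lane 2. The wild-type lanes thus held almost wholly different barcodes, so their ratio compares different sets of cells. With 1 library per genotype no value has a replicate and no test between genotypes is possible. Intervals below are exact Poisson or binomial 95% intervals that cover counting error only, and the ratio of the wild-type lanes serves as a technical yardstick, not as a replicate.

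A macrophage that takes up lipoproteins and dead cells cannot break down the sterol ring, and disposes of cholesterol by exporting it or by storing it as ester in lipid droplets. Export runs through the membrane transporters encoded by Abca1, which loads lipid-poor apolipoprotein, and Abcg1, which loads lipoprotein particles, and the liver X receptor (LXR) encoded by Nr1h3 is the oxysterol-activated nuclear receptor known to switch on Abca1, Abcg1, Apoe, Pltp and Lpl together. Apolipoprotein E and phospholipid transfer protein, from Apoe and Pltp, are secreted acceptors and remodellers of lipid, Soat1 encodes the enzyme that esterifies cholesterol, Plin2 coats the lipid droplet, Lpl hydrolyses the triglyceride of lipoproteins, Fabp5 carries fatty acids inside the cell, and Trem2 is a lipid-sensing surface receptor that marks lipid-associated macrophages.

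Abca1, one of the 2 members more than 2-fold higher in the knockout, is shown here with the 250 bases before its RefSeq transcription start (GRCm38.p6, chr4:53159896-53160145, minus strand), because an LXR response element in this promoter is textbook knowledge. LXR binds as a pair with the retinoid X receptor to 2 half-sites spaced by 4 bases. The capitals mark the match, on the strand opposite to the gene and 67 to 53 bases before the start, to the pattern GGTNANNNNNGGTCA searched on both strands.
Abca1: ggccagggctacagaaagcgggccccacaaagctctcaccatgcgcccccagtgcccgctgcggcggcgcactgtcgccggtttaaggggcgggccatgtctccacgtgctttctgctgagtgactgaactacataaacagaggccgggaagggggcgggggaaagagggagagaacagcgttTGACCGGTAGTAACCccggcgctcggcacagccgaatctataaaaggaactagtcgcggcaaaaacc

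That pattern leaves the first base of the first half-site free and was chosen after the Abca1 promoter had been read. It was present in 58 of 32851 RefSeq promoter windows of the same 250 bases (0.177%). The full pattern AGGTNANNNNNGGTCA, which contains the shorter one, was found in 26 windows (0.0791%) and in none (0) of the 7 genes of this set that the promoter table holds, namely Abca1, Apoe, Nr1h3, Plin2, Pltp, Soat1 and Trem2. Apart from Abca1, 0 of those 7 held the shorter pattern. A match describes letters in this window and is not evidence of binding.

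The 10 genes are protein-coding (GRCm38, GENCODE M21). The exporters are Abca1 at chr4:53030787-53159895 on the minus strand and Abcg1 at chr17:31057675-31117988 on the plus strand. Apoe lies at chr7:19696109-19699188, Pltp at chr2:164839518-164857711 and Nr1h3 at chr2:91184061-91202834, all on the minus strand. Soat1 lies at chr1:156424525-156474331 and Plin2 at chr4:86648386-86670060, both on the minus strand. Lpl lies at chr8:68880491-68907448, Fabp5 at chr3:10012548-10016607 and Trem2 at chr17:48346401-48354147, all on the plus strand. Since 3′ ends were counted, a member could lose reads to a near-identical transcript end, but 0 such genes were found for any of the 10.

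Abca1 and Abcg1, the 2 cholesterol exporters, were more than 2-fold higher in the knockout library than in the wild type. Abca1 had 145 CPM in the knockout (136 to 154), 58.4 in lane 1 (54.5 to 62.5) and 47.5 in lane 2 (42.2 to 53.3). Abcg1 had 54.8 CPM (49.5 to 60.4), 21.6 (19.3 to 24.1) and 19.6 (16.3 to 23.5). For both genes the knockout interval lay above those of both lanes. On the log2 scale, computed on CPM plus a pseudocount of 1, the knockout exceeded the wild type by 1.37 for Abca1 (1.27 to 1.51) and by 1.34 for Abcg1 (1.18 to 1.58), while lane 2 differed from lane 1 by -0.29 and -0.13. Among 7401 genes with a mean of at least 10 CPM in the libraries, 9.04% were at least 2-fold higher in the knockout and 3.12% at least 2-fold lower, against 0.878% past 2-fold in either direction between the wild-type lanes. All genes together lay 0.18 above 0 in the median, and with median-of-ratios scaling, which removes that shift, 5.99% were higher and 6.35% lower. Of the 10 genes, 2 were past 2-fold higher (Abca1 and Abcg1) and 1 lower (Fabp5).

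**Figure D1:**
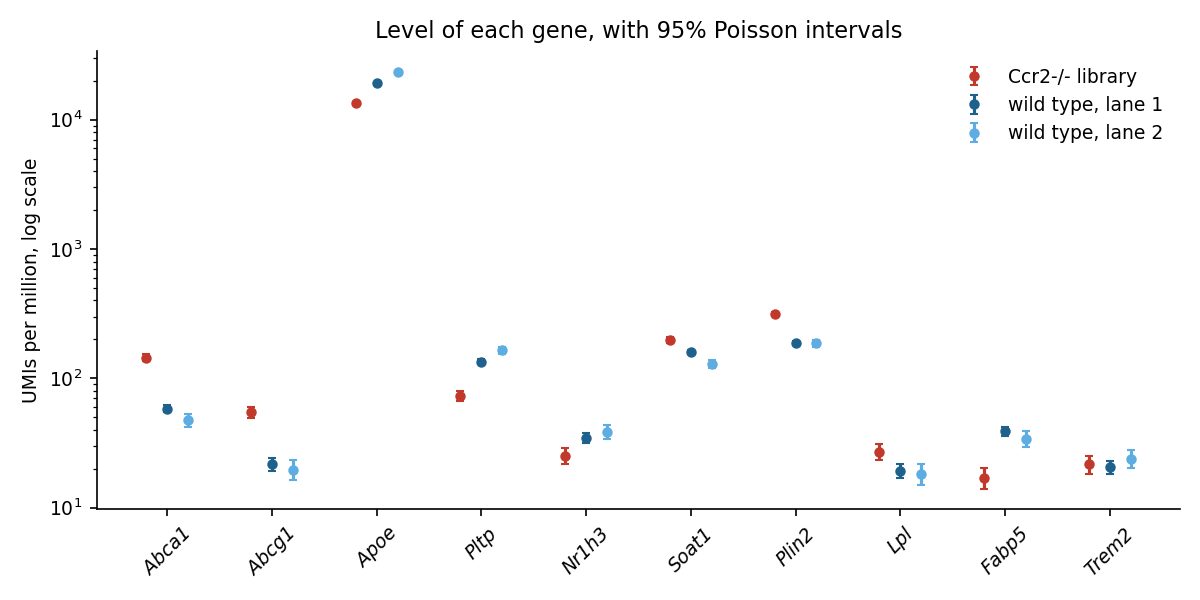
CPM (log scale) for each of the 10 genes in the Ccr2-/- library and the 2 wild-type lanes, with 95% Poisson intervals for counting error. For Abca1, Abcg1, Plin2, Soat1 and Lpl the Ccr2-/- point lies above both lanes, and for Apoe, Pltp, Nr1h3 and Fabp5 below both.

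At equal depth the exporters also differed in how many cells held them. When every cell was thinned at random to 1000 UMIs, which left out 196 knockout cells and 1 wild-type cell, an Abca1 UMI was present in 13.8% of cells in the knockout (12.4% to 15.2%) but in only 6.07% in the wild type (5.24% to 6.98%), although before thinning the shares were 26.7% and 26.1%. Abcg1 was present in 5.63% (4.74% to 6.62%) and 2.02% (1.55% to 2.59%) of thinned cells, against 13.0% and 11.9% before. Cells gated by lymphoid genes were read as a possible background, and whether they lack these transcripts was not tested. Their thinned shares were 2 of 27 knockout and 0 of 14 wild-type cells for Abca1, and 0 of 27 and 0 of 14 for Abcg1. Before thinning their medians were 2243 and 3546 UMIs. By the exact interval, 0 of 27 and 0 of 14 allow a share of up to 12.8% and 23.2%, so too few such cells were present to set a background.

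The Abca1 excess was smaller among cells of like original depth and among cells of like immediate-early content. Restricted to cells of 2000 to 4000 UMIs, 1051 from the knockout and 713 from the wild type, the log2 ratio was 0.67 for Abca1 and 1.10 for Abcg1. Among cells with 0.5% to 1.5% immediate-early UMIs (431 and 1387 cells) it was 0.52 for Abca1 and 1.38 for Abcg1, so that Abcg1 stayed past 2-fold in both and Abca1 in neither. The correlation of Abca1 with the immediate-early sum over thinned cells was 0.12 in the knockout and -0.02 and -0.03 in the lanes. The part of depth or immediate-early content in the difference was not tested.

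Apoe and Pltp, the genes for secreted acceptors and remodellers of lipid, were lower in the knockout. Apoe, by which macrophages supply a lipid acceptor to their surroundings, had 13434 CPM in the knockout (13350 to 13519), 19301 in lane 1 (19230 to 19373) and 23417 in lane 2 (23295 to 23538). The wild-type level was 1.53 times the knockout level (log2 ratio -0.61, interval -0.62 to -0.60), and the lanes themselves differed by 0.28, more than their counting error. Pltp had 72.8 CPM in the knockout (66.7 to 79.3), 135 in lane 1 (129 to 141) and 165 in lane 2 (155 to 175). Its log2 ratio was -0.97 (-1.12 to -0.85) and the lanes differed by 0.29. For both genes the knockout lay below both lanes, and the lanes stood in the same order. Reads of Pltp could include reads of Ctsa, which overlaps it on the opposite strand, if strand was not used in counting. Abcg1 overlaps Gm25447 and Nr1h3 overlaps Gm13783 on the same strand, where strand cannot separate reads, and Nr1h3 and Soat1 overlap Gm23390 and Gm37648 on the opposite strand.

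Nearly every cell held Apoe, so that its level per cell can be read directly. After thinning to 1000 UMIs the median cell had 10 Apoe UMIs in the knockout, 15 in lane 1 and 18 in lane 2, with 5th to 95th percentiles of 2 to 30, 2 to 42 and 2 to 50. The lower tails coincided, and the upper tails did not. Lymphoid-gated cells also held Apoe, in 63.0% of the 27 knockout and 78.6% of the 14 wild-type cells, but at 1037 and 2143 CPM against 12031 and 19138 CPM over all thinned cells of those libraries. In the cells with 2000 to 4000 UMIs the Apoe log2 ratio was only -0.04, and Pltp stood at -0.41. The size of the Apoe difference depended on the depth of the cells compared.

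The receptor that regulates these genes was itself lower in the knockout. Nr1h3 had 25.2 CPM in the knockout (21.7 to 29.1), 34.7 in lane 1 (31.8 to 37.9) and 38.5 in lane 2 (33.7 to 43.7), a log2 ratio of -0.49 (-0.75 to -0.27). After thinning it was found in 2.44% of cells in the knockout (1.86% to 3.14%) against 3.48% in the wild type (2.86% to 4.20%), and before thinning in 6.24% and 17.2%. Nr1h2, a further LXR gene read with the sterol and fatty acid regulators, had 32.9 CPM in the knockout against 27.0 in the wild type. Its log2 ratio was 0.28 (0.06 to 0.51). Of the genes named above as LXR targets, Abca1 and Abcg1 were higher and Apoe and Pltp lower in the knockout, while Lpl changed direction with the cells compared; of all genes 62.3% were higher in the knockout. In sums over cells, fewer cells expressing a gene and less RNA per expressing cell cannot be told apart.

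Storage genes were higher in the knockout by less than 2-fold. Plin2, which coats lipid droplets, had 315 CPM in the knockout (302 to 328), 187 in lane 1 (180 to 194) and 186 in lane 2 (175 to 197). The 2 lanes agree within sampling noise (log2 ratio -0.01, -0.11 to 0.09), and the knockout exceeded the wild type by 0.75 (0.68 to 0.83). After thinning, a Plin2 UMI was found in 583 of 2416 cells in the knockout (22.4% to 25.9%) and in 452 of 3015 in the wild type (13.7% to 16.3%), beside 5 of 27 and 1 of 14 lymphoid-gated cells; before thinning the shares were 43.6% and 55.4%. Of the genes higher in the knockout, Plin2 moved least over 16 settings, with log2 ratios of 0.46 to 0.87. Soat1, which esterifies cholesterol, had 199 CPM (189 to 209), 160 (154 to 167) and 129 (120 to 139). Its log2 ratio was 0.39 (0.31 to 0.49), and lane 2 stood at -0.31 relative to lane 1, so the genotypes differed little more than the lanes.

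Of the genes for fatty acid supply, Fabp5 was lower in the knockout, while the direction for Lpl changed with the cells compared. Fabp5, a cytosolic fatty acid carrier, had 16.9 CPM in the knockout (14.1 to 20.2), 38.9 in lane 1 (35.8 to 42.3) and 34.1 in lane 2 (29.6 to 39.0). Its log2 ratio was -1.10 (-1.43 to -0.87), and after thinning it was present in 1.95% (1.43% to 2.58%) against 3.85% (3.19% to 4.60%) of cells, and before thinning in 3.91% and 17.4%. The knockout interval lay below those of both lanes. The Fabp5 ratio was -0.89 after thinning, short of 2-fold, and -0.38 among cells with 0.5% to 1.5% immediate-early UMIs. Lpl, the triglyceride lipase, had 27.1 CPM (23.5 to 31.2), 19.2 (17.0 to 21.6) and 18.2 (14.95 to 21.9), a log2 ratio of 0.50 (0.27 to 0.77). Among cells with 2000 to 4000 UMIs its ratio was -0.16 and among cells with 0.5% to 1.5% immediate-early UMIs -1.23, whereas among cells without a Ccr2 UMI it was 1.23. In the knockout 19.8% of Lpl UMIs and 19.5% of Fabp5 UMIs came from the 132 cells outside the C1q-positive macrophage gate, which held 6.25% of all UMIs; in lane 1 these shares were 3.21% and 2.29% in 39 cells with 2.40% of UMIs.

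Trem2, the lipid-sensing receptor, differed between the libraries by less than counting error. It had 21.6 CPM in the knockout (18.4 to 25.3), 20.6 in lane 1 (18.3 to 23.1) and 23.9 in lane 2 (20.2 to 28.1). All 3 intervals overlapped, and the log2 ratio was 0.00 with an interval of -0.27 to 0.27, which leaves room for a difference of about that size in either direction. Thinned shares were 1.90% (1.40% to 2.53%) and 2.06% (1.58% to 2.63%), against 4.59% and 10.1% before. Among thinned lymphoid-gated cells 0 of 27 and 0 of 14 held Trem2, Lpl or Nr1h3, and 1 of 27 and 0 of 14 held Fabp5. Over 16 settings the ratio was above 0 in 12 and below 0 in 4, from -0.75 among cells with 0.5% to 1.5% immediate-early UMIs to 0.87 among cells with a Timd4 UMI.

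**Figure D2:**
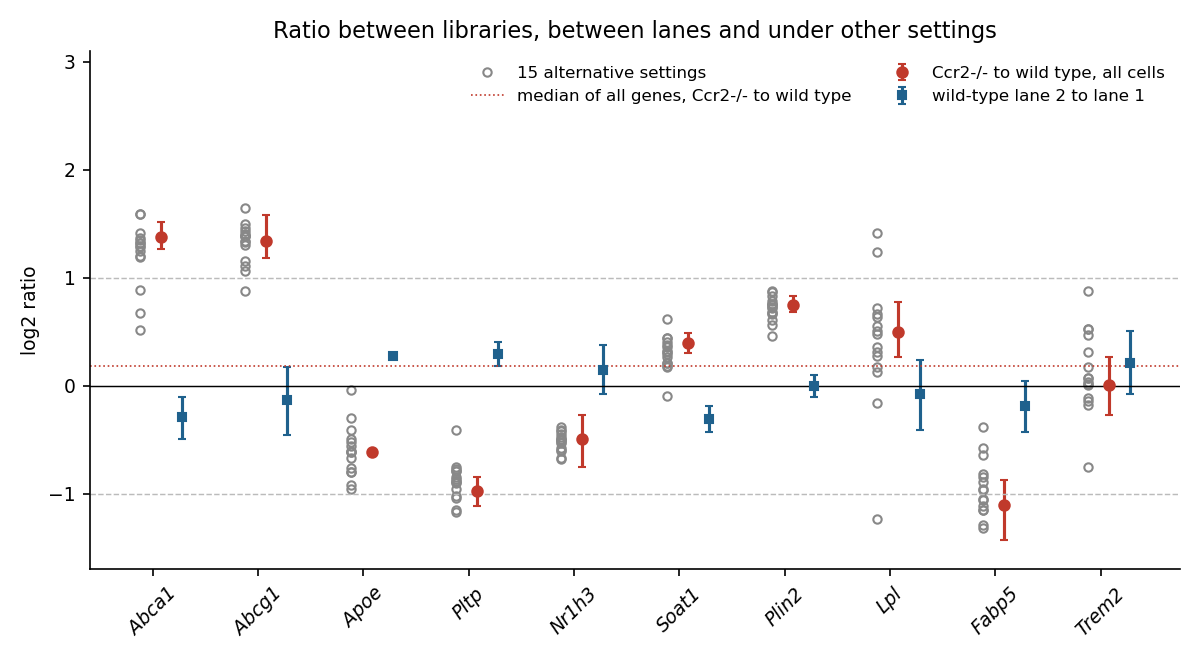
Log2 ratio of each gene between the Ccr2-/- and wild-type libraries (red, with 95% counting interval), between wild-type lane 2 and lane 1 (blue squares), and between genotypes under 15 alternative settings (grey). Apoe, Pltp, Fabp5 and Nr1h3 stay below 0 and Abca1, Abcg1 and Plin2 above 0 throughout, while Lpl, Trem2 and Soat1 cross 0. The Apoe value nearest 0 is -0.04, among cells with 2000 to 4000 UMIs. Dashed lines mark 2-fold and the dotted line the median of all genes, 0.18.

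Transcript length moved with these ratios. Over 7391 genes with an annotated transcript (the longest coding one in GENCODE M21, otherwise the longest) the median log2 ratio of knockout to wild type went, over 10 length classes of nearly equal size, from -0.53 in the shortest to 0.49 in the longest, and between the wild-type lanes from 0.09 to -0.38. Spearman's rho across genes was 0.47 for the genotypes and -0.55 for the lanes, where genes are not independent replicates. Abca1 (10262 bases) and Abcg1 (5832 bases) lie in the 2 longest classes and Fabp5 (987 bases), Trem2 (1088 bases) and Apoe (1408 bases) in the 2 shortest. Relative to the median of their own class, Abca1 stood at 0.89, Abcg1 at 0.87, Plin2 at 0.83, Trem2 at 0.53, Lpl at 0.17, Soat1 at -0.094, Apoe at -0.30, Nr1h3 at -0.41, Fabp5 at -0.58 and Pltp at -1.04. On that scale Plin2 stood beside the exporters, Soat1 lost its excess, 0 members were 2-fold higher and Pltp was the 1 member at least 2-fold lower. The median over the 10 genes was 0.20 before and 0.04 after this centring, beside 0.18 and 0 over all genes.

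**Figure D3:**
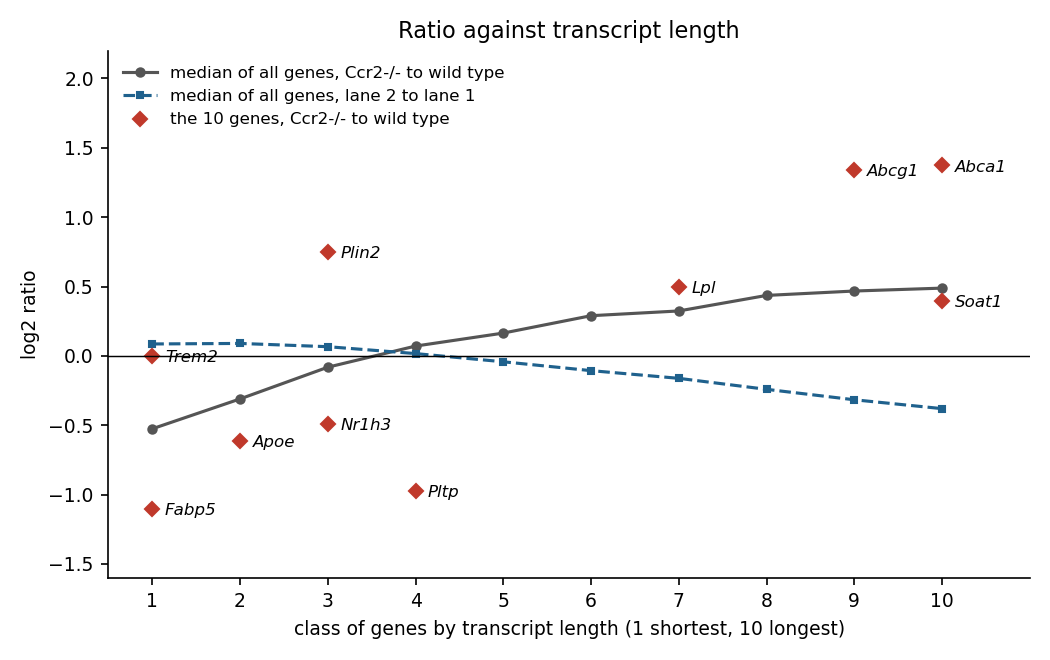
Median log2 ratio of all genes by class of transcript length for Ccr2-/- to wild type (grey line) and lane 2 to lane 1 (blue dashed line), with the 10 genes as red diamonds. Abca1, Abcg1 and Plin2 lie above the grey line of their own class and Pltp, Fabp5, Nr1h3 and Apoe below it, while Soat1 lies close to the line (-0.094).

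Inside each library, Apoe was higher in cells with a Timd4 UMI. Thinned to 1000 UMIs, Timd4-positive and Timd4-negative cells had 13047 and 11536 CPM of Apoe in the knockout, 21311 and 17593 in lane 1, and 27592 and 20410 in lane 2. The log2 differences were 0.18 (0.14 to 0.21), 0.28 (0.24 to 0.31) and 0.43 (0.38 to 0.49). The level also climbed with the number of Timd4 UMIs. From 0 to 1 to 2 or 3 UMIs it was 11536, 12413 and 14386 CPM in the knockout, 17593, 19520 and 24076 in lane 1, and 20410, 25301 and 30421 in lane 2. Cells with 4 or more Timd4 UMIs, 24, 13 and 9 in number, continued that order at 15000, 25769 and 36778 CPM. Depth rose along the same classes in the knockout, from a median of 2374.5 to 2791, 3572 and 4412 UMIs. In lane 1 these medians were 6161, 5945, 6450.5 and 8299 UMIs, and in lane 2 6054, 5336, 7924.5 and 9032. Among cells with 2000 to 4000 UMIs the Apoe difference by Timd4 was 0.00 in the knockout and 0.19 and 0.45 in the lanes.

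Apoe stood the other way round with Ccr2. Wild-type cells with a Ccr2 UMI had 13969 CPM of Apoe against 21535 in cells without one in lane 1, and 15794 against 25501 in lane 2, differences of -0.62 (-0.65 to -0.59) and -0.69 (-0.74 to -0.65). They were deeper, with medians of 7641 against 5238 UMIs in lane 1 and 7944 against 5367 in lane 2, and the difference held among cells of 2000 to 4000 UMIs at -0.74 and -1.11. With both genes read together, wild-type Apoe was 25110 CPM in 354 cells with Timd4 only, 22151 in 1338 with neither, 15506 in 91 with both and 14417 in 1232 with Ccr2 only. Knockout cells with Timd4 only had 13067 CPM and those with neither 11536. Each knockout class thus lay below the lowest wild-type class, and among cells without a Ccr2 UMI the genotype difference was -0.92, larger than the -0.61 over all cells. Among all cells with 2000 to 4000 UMIs that difference was only -0.04. These classes were not compared between genotypes at like original depth.

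**Figure D4:**
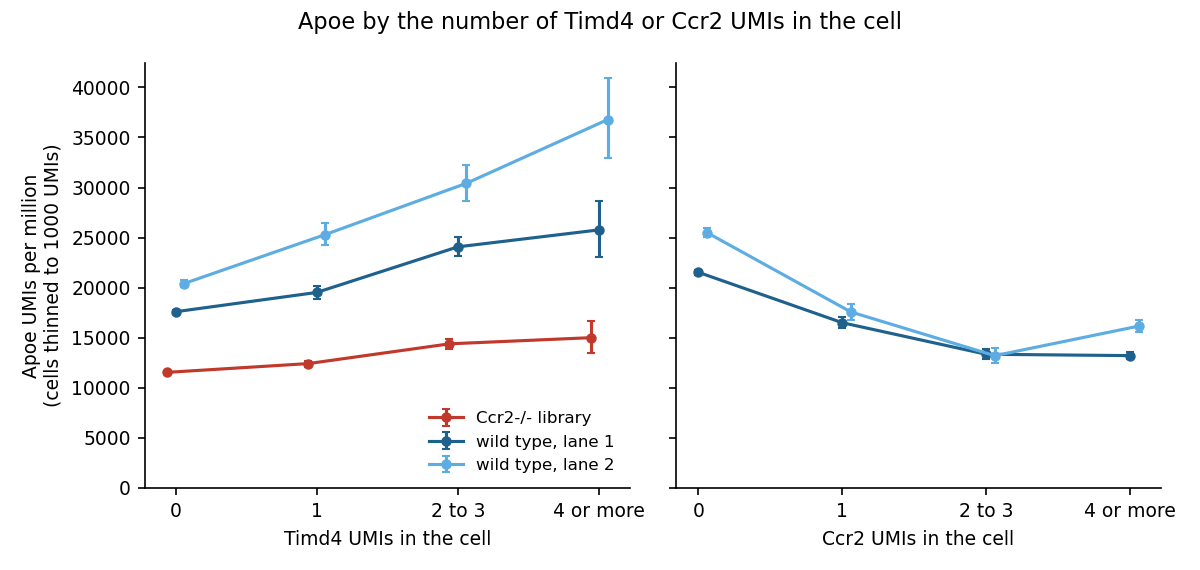
Apoe CPM in cells thinned to 1000 UMIs, by the number of Timd4 UMIs in the Ccr2-/- library and both wild-type lanes (left) and of Ccr2 UMIs in the wild-type lanes (right), with 95% Poisson intervals. Apoe climbs with Timd4 in all 3 sets of cells and is lower in cells with Ccr2 than without in both lanes. The top Timd4 class of the lanes holds 13 and 9 cells. In the Ccr2-/- library median depth rises along the Timd4 classes too, from 2374.5 to 4412 UMIs before thinning.

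At 1000 UMIs per cell the other members gave few counts, so their relation to both genes was also read from full counts, an alternative chosen after the data had been seen. Lpl went opposite to Apoe. In cells with a Timd4 UMI it had 15.3 CPM against 33.8 in the knockout, 11.4 against 20.7 in lane 1 and 2.28 against 20.8 in lane 2, log2 differences of -1.10 (-1.68 to -0.64), -0.80 (-1.50 to -0.27) and -2.73 (-6.25 to -1.30), the last from 2 UMIs. In cells with a Ccr2 UMI it had 24.7 against 13.0 CPM in lane 1 and 29.9 against 6.78 in lane 2, differences of 0.87 (0.55 to 1.30) and 1.99 (1.44 to 2.90). The intervals left out 0 in all 5 comparisons. The thinned counts gave the same sign in 4 of the 5, the exception being 0.33 for Timd4 in lane 1. Their intervals included 0 in every comparison except that for Ccr2 in lane 2 (1.64, 0.13 to 3.60).

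Trem2 shared that direction in the wild type and not clearly in the knockout. With a Timd4 UMI it had 10.6 against 22.4 CPM in lane 1 and 11.4 against 26.0 in lane 2, differences of -1.02 (-1.76 to -0.49) and -1.12 (-2.28 to -0.26), but 20.6 against 22.2 CPM in the knockout (-0.10, -0.61 to 0.38). With a Ccr2 UMI it had 26.6 against 13.8 CPM in lane 1 and 30.2 against 17.8 in lane 2, differences of 0.90 (0.59 to 1.32) and 0.73 (0.27 to 1.28). Whether the knockout differs from the wild type in this relation was not tested. Soat1 was lower with Ccr2 in both lanes, at -0.40 (-0.52 to -0.28) and -0.46 (-0.67 to -0.25), and so was Plin2 at -0.20 (-0.31 to -0.09) and -0.18 (-0.35 to -0.01). Plin2 was higher with Timd4 in all 3 sets, by 0.19, 0.32 and 0.29, and Pltp was lower in all 3, at -0.29, -0.27 and -0.55. Abca1, Abcg1, Nr1h3 and Fabp5 had intervals that included 0, or differences of opposite sign, in at least 1 of the sets for each splitting gene. In thinned counts Plin2 by Ccr2 stood at 0.00 (-0.30 to 0.31) in lane 1 and -0.29 (-0.76 to 0.16) in lane 2. Soat1 by Ccr2 stood there at -0.56 (-0.88 to -0.26) and -0.05 (-0.58 to 0.46). Thinned intervals included 0 for Trem2 by Ccr2 in both lanes, and for Plin2 and Pltp by Timd4 in all 3 sets. For Trem2 by Timd4 they left out 0 in lane 1 only. The part of depth in these full-count differences was not tested.

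These differences were seldom as large as 2-fold in any gene. With full counts and a mean of at least 10 CPM, 1.49% of 7528 genes were past 2-fold in either direction between knockout cells with and without Timd4, 1.23% in lane 1 and 2.92% in lane 2, and for Ccr2 2.51% in lane 1 and 2.95% in lane 2. Lpl passed 2-fold in 3 of these 5 comparisons and Trem2 in 2, both in the Timd4 comparisons of the lanes, and no other member in any. With thinned counts and a mean of at least 50 CPM, 0.321%, 1.34% and 6.17% of genes were past 2-fold by Timd4, and 2.41% and 3.79% by Ccr2, and of the members above that minimum 0 were past 2-fold.

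**Figure D5:**
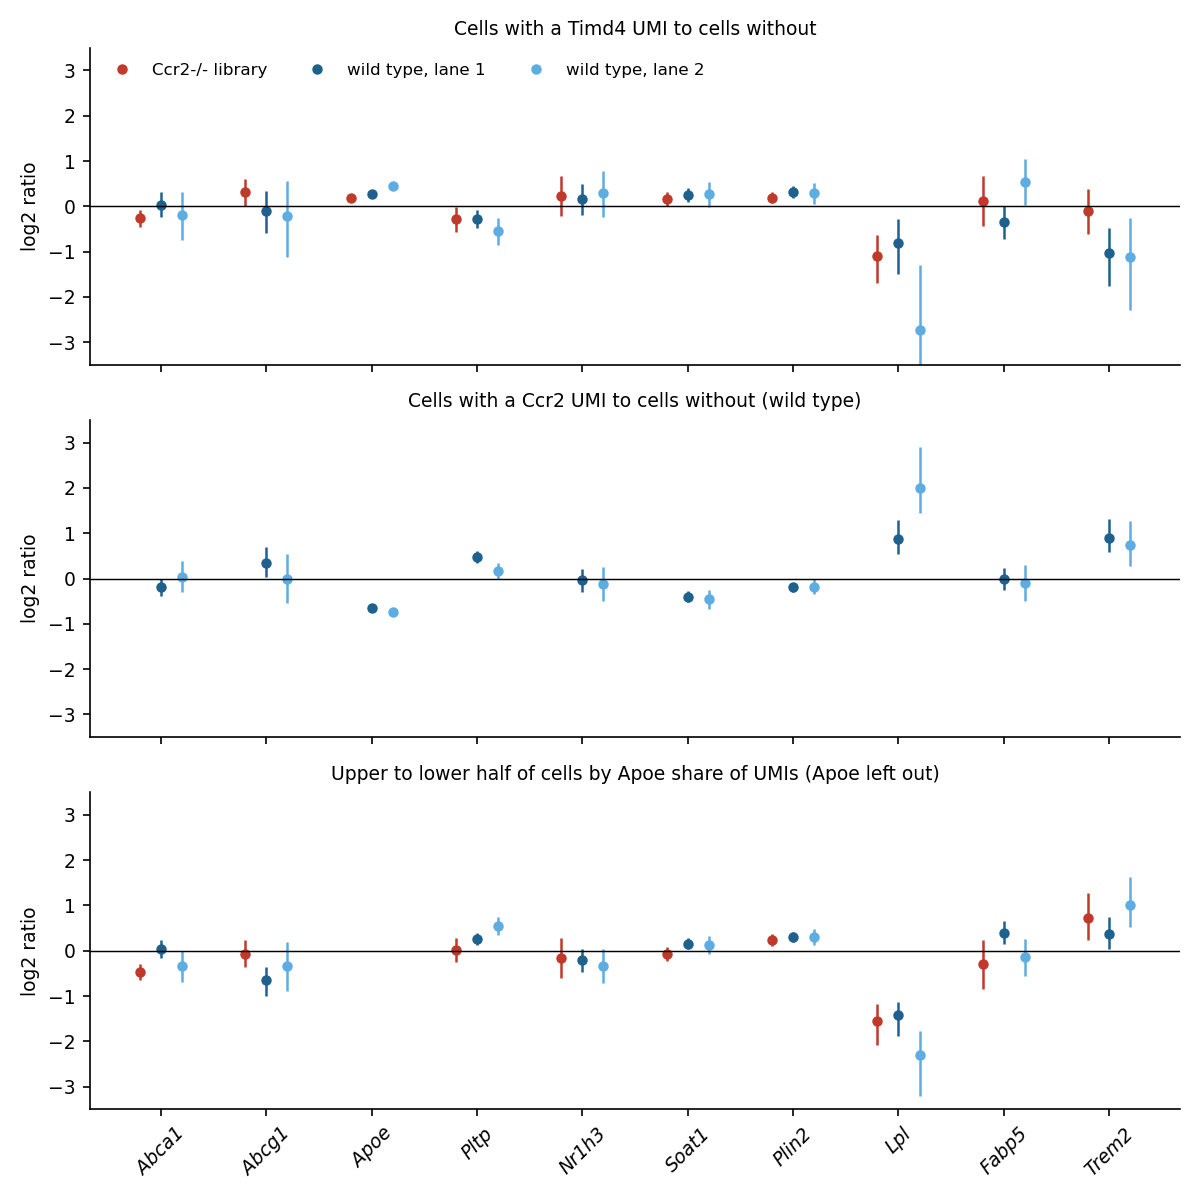
Log2 ratio of each gene from full counts, in cells with a Timd4 UMI to those without (top), with a Ccr2 UMI to those without (middle, wild type) and in cells above to cells below the median Apoe share of UMIs (bottom), with 95% counting intervals. Lpl lies below 0 with Timd4 and with Apoe and above 0 with Ccr2 in every set; its interval for Timd4 in lane 2 reaches -6.25, beyond the axis.

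Co-variation among the 10 genes over cells was weak at 1000 UMIs per cell. Pearson correlations of log-transformed counts thinned to 1000 UMIs ran over the 45 pairs from -0.05 to 0.06 in 2416 knockout cells, from -0.04 to 0.06 in 2109 cells of lane 1 and from -0.10 to 0.12 in 906 cells of lane 2, with medians of 0.00, 0.00 and -0.01. Counts this sparse limit any correlation, so that weak values are no finding, and the cells of a set share their library and, after thinning, their depth. The highest mean over the 3 sets was that of Apoe with Pltp, at 0.05, 0.06 and 0.12, and the lowest that of Apoe with Lpl, at -0.05, -0.04 and -0.10. At 2000 UMIs per cell Apoe and Lpl stood at -0.13, -0.11 and -0.15. Apoe and Pltp stood there at -0.01, 0.04 and 0.13, so that pair did not keep its sign. Abca1 with Abcg1, alike in their excess in the knockout, gave -0.04, 0.01 and 0.04 at 1000 UMIs. At 5000 UMIs, which 1299 and 548 wild-type cells reached, the value farthest from 0 was that of Abca1 with Trem2 in lane 2, 0.25, against 0.10 in lane 1; at 2000 UMIs this pair stood at 0.05 in the knockout and 0.11 and 0.13 in the lanes. Apoe with Lpl stood at -0.13 and -0.12 at 5000 UMIs.

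The members were also compared across a division of the cells at the median Apoe share of each set. That median was 0.940% of UMIs in the knockout, 1.55% in lane 1 and 1.86% in lane 2, and the division was added after the data had been seen. Lpl had 14.8 CPM above and 45.3 below the median in the knockout, 10.6 and 30.2 in lane 1, and 6.24 and 34.5 in lane 2, differences of -1.56 (-2.07 to -1.18), -1.42 (-1.89 to -1.13) and -2.29 (-3.21 to -1.78). Among C1q-positive cells outside the gates of other cell types these were -1.24, -1.40 and -2.32, and among cells without a Ccr2 UMI -1.58, -1.56 and -2.30. Between cells above and below the median, 3.28% of genes in the knockout, 1.46% in lane 1 and 2.74% in lane 2 were past 2-fold in either direction, with medians of -0.15, -0.06 and -0.09 over all genes. Lpl was thus lower in Apoe-rich cells in all 3 sets, also without the cells outside the macrophage gate. The division used full counts and was not matched for depth. In each set the cells above the median held more UMIs in all than those below. The part of depth in the differences of Lpl and of the other members was not tested.

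Trem2 and Plin2 were higher above the median Apoe share in every set. Trem2 had 25.9 and 15.3 CPM above and below it in the knockout, 23.0 and 17.5 in lane 1, and 30.6 and 14.7 in lane 2, differences of 0.72 (0.24 to 1.29), 0.37 (0.05 to 0.74) and 1.01 (0.51 to 1.63). Among C1q-positive cells the lane 1 value was 0.16 with an interval from -0.17 to 0.52. In the lanes Trem2 was thus higher with Apoe, although in the splits by Timd4 and Ccr2 it went opposite to Apoe. Plin2 differed by 0.24 (0.11 to 0.36), 0.30 (0.19 to 0.41) and 0.30 (0.12 to 0.48), and in the knockout by 0.11 (-0.02 to 0.23) among C1q-positive cells. Pltp was higher in both lanes, by 0.26 (0.13 to 0.40) and 0.54 (0.35 to 0.74), but by 0.02 (-0.24 to 0.28) in the knockout. Abca1 was lower in Apoe-rich knockout cells (-0.46, -0.64 to -0.29), and 0.04 (-0.16 to 0.24) and -0.34 (-0.69 to -0.01) in the lanes. Lpl was past 2-fold in all 3 sets, Trem2 in lane 2, and no other member in any.

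Among 970 genes with at least 100 CPM in every lane, those most like Apoe over thinned cells were Cd74, with a mean correlation of 0.59 over the 3 sets, C1qb with 0.53 and H2-Ab1 with 0.48; these encode the MHC class II invariant chain, a complement C1q chain and an MHC class II chain. Apoe correlated with the summed macrophage markers at 0.52, 0.65 and 0.68, and with the summed monocyte markers at -0.22, -0.30 and -0.39. For the other members the closest genes reached much lower means. They were Pf4 (0.14), Serinc3 and Mrc1 for Abca1, Psap (0.13), Adamdec1 and Dnase1l3 for Soat1, Lyz2 (0.12), Cst3 and Itm2b for Pltp, and Malat1 (0.12), Rgs1 and Hes1 for Plin2. Trem2 was closest to Cst3 (0.10), Trf and Dab2, Nr1h3 to Wnt4 (0.09), Psap and Cxcl9, Lpl to Ptma (0.06), Oaz1 and Ccl6, Fabp5 to Rplp0 (0.06), Eif3h and Ybx1, and Abcg1 to Ctsz (0.05), Fgd2 and Zfp36. At such values the order of the closest genes carries little information.

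Neighbouring steps of lipid metabolism were read from lists of named genes, against the 9.04% of genes higher and 3.12% lower noted above. Of 15 genes of the sterol synthesis list with a mean of at least 10 CPM, the minimum for each list, 1 was at least 2-fold higher and 1 lower, with a median log2 ratio of 0.21. These were Insig1 (1.56), the sterol-sensing retention factor of the SREBP pathway, and Fdps (-1.21), the farnesyl diphosphate synthase. Of 11 regulators, 2 were 2-fold higher and 0 lower (median 0.33): Mylip (1.76), a ubiquitin ligase gene known as an LXR target, and Rxra (1.56), the partner of LXR, while Ppard stood at 0.63. Mylip thus stood with Abca1 and Abcg1 rather than with Apoe and Pltp.

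Of 6 measured lipid uptake receptors 1 was 2-fold higher and 1 lower (median 0.51). Cd36, a fatty acid receptor, had 140 against 41.4 CPM (1.74), Cd68 stood at -1.01 and Lrp1 at 0.68. Of 8 lipid droplet and triglyceride genes 3 were 2-fold higher and 0 lower, and their median log2 ratio was 0.84. They were Dgat1 (1.73), which makes triglyceride, Hilpda (1.37), an inhibitor of its breakdown, and Fabp4, with 264 UMIs in the knockout and 2 in the wild type, a log2 ratio of 5.09 with the pseudocount and of 6.69 to 11.6 by the counting interval without it. Fabp4 is also made by endothelial cells, and all 8 endothelial and fibroblast markers were higher in the knockout, summing to 401 against 85.7 and 64.4 CPM in the lanes. Among C1q-positive cells without a Ccr2 UMI the Fabp4 log2 ratio with the pseudocount was smaller, 2.46 against 5.09 over all cells. The count of 3 genes rests on all cells, and the part of endothelial cells and fibroblasts in the Fabp4 value was not tested. Relative to genes of like length, Dgat1 stood at 1.81 and Hilpda at 1.90.

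Of 9 fatty acid oxidation genes 1 was 2-fold higher, Cpt1a (1.06), which admits fatty acids to mitochondria, with a median of -0.02; Hadha stood at -0.55. None (0) of 10 lysosomal lipid genes was past 2-fold (median 0.16), and Psap and Npc1 both stood at 0.78. Of 8 measured genes of lipid-associated macrophages 0 were higher and 1 lower, Lgals3 (-1.34), with Gpnmb at 0.73, Ctsd at 0.51 and a median of 0.18; Spp1 had 1 UMI in the knockout and 46 in the wild type. The Trem2 adaptor Tyrobp stood at -0.81 with 1438 against 2522 CPM, and 0 of 6 signalling partners of Trem2 were past 2-fold. Apoc1, the neighbour of Apoe in the same gene cluster, had 15.7 CPM against 6.05 (log2 ratio 1.24, 0.997 to 1.75) and 0.83 after thinning, short of 2-fold. Enterocytes also make apolipoproteins, and 9 of 17 enterocyte markers were higher in the knockout, with sums of 331 CPM in the knockout, 390 in lane 1 and 253 in lane 2; their part in the Apoc1 value was not tested.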

How the data were processed

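The deposited values are raw UMI counts, whole numbers by gene and cell barcode, for 1 wild-type and 1 Ccr2-knockout library, per the file headers; alignment and counting used Cell Ranger 3.0.1 and mm10, per the submitters' processing notes, and the annotation release is not given in the sources used here. The 10 genes, the gene lists and the comparisons were chosen with earlier results of these data known. Wild-type lanes were told apart by barcode suffix, per the labels. The cell filter was a minimum of 200 genes and a maximum of 10% mitochondrial UMIs. Doublets stayed in, except in an alternative that removed 55, 36 and 7 cells (knockout, lane 1, lane 2) by Scrublet score. Counts were summed per library and scaled to CPM. Ratios used a pseudocount of 1 CPM, and a gene counted as higher or lower at 2-fold with a mean of at least 10 CPM (50 CPM in splits of thinned cells). For shares, splits and correlations each cell was thinned to 1000 UMIs without replacement (seed 1). PCR and capture errors lie outside the counting intervals. Besides the 10 genes, the text names the 3 genes of each list with the largest absolute log2 ratio and the 3 genes most correlated with each member; Some genes that this rule selects are not reported here. Spp1 and Nr1h2 were named after their values were seen. Promoter sequences are RefSeq's (GRCm38.p6), and coordinates and lengths are from GENCODE M21. The ratio script was checked on simulated data. Python 3.11.15, numpy 2.4.6, scipy 1.17.1, pandas 2.3.3 and scanpy 1.11.5 were used.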

Additional observations from a re-analysis of the deposited data

How the results depend on the processing

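Under 15 alternatives to the comparison of libraries, 4 of them chosen after seeing the data, Apoe, Pltp, Fabp5 and Nr1h3 stayed below 0 and Abca1, Abcg1 and Plin2 above 0. Apoe nearly reached 0, at -0.04 among cells with 2000 to 4000 UMIs, and was lowest at -0.96 among cells with neither a Timd4 nor a Ccr2 UMI. Lpl turned to -0.16 among cells with 2000 to 4000 UMIs and to -1.23 among cells with 0.5% to 1.5% immediate-early UMIs, and Soat1 to -0.094 relative to genes of like transcript length. The 2 members at least 2-fold higher became 1 among cells with 2000 to 4000 UMIs and with 0.5% to 1.5% immediate-early UMIs, 0 relative to genes of like length, and 3, with Lpl added, among cells without a Ccr2 UMI and among cells with neither a Timd4 nor a Ccr2 UMI. The 1 member at least 2-fold lower became 0 with a pseudocount of 10 CPM, with cells thinned to 1000 or 2000 UMIs, among cells with 2000 to 4000 UMIs and among cells with a Timd4 UMI, and 2 with median-of-ratios scaling and among C1q-positive cells. That member was Pltp, not Fabp5, against lane 2 only and relative to genes of like length, and Lpl among cells with 0.5% to 1.5% immediate-early UMIs. The median over members, 0.20, was 0.44 among cells with a Timd4 UMI and -0.39 among cells with 0.5% to 1.5% immediate-early UMIs. Median-of-ratios scaling moved all genes by 0.18, which left 5.99% of genes 2-fold higher and 6.35% lower. In splits by Ccr2, Pltp in lane 1 turned to -0.48 among cells with 2000 to 4000 UMIs, and Fabp5 in lane 2 from 1.25 to -0.12 at 2000 UMIs per cell and -0.10 with full counts. The cause of these shifts was not tested. Depth limits Lpl, Trem2, Nr1h3 and Fabp5, which had 123 to 197 UMIs in the knockout. No paired analysis was possible because each genotype is 1 library.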
